A study of Mus musculus with 6 samples.

Results

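Matricellular proteins are secreted into the extracellular matrix, where they regulate the signals that cells receive from it rather than bear load. The transcripts of 10 of them were followed in sinoatrial node (SAN) tissue of HCN4FEA and WT mice: Ccn2, Thbs1, Thbs2, Postn, Spp1, Sparc, Comp, Cilp, Tnc and Fn1. Fn1 encodes fibronectin, which is a structural matrix protein as well. A member was a probe set whose platform annotation gives exactly 1 gene symbol, that symbol being on the list. This rule found 10 probe sets for 9 genes, of 23521 probe sets for 22180 genes with 1 symbol. Spp1, which encodes osteopontin, was not analysed here. The members were chosen from a gene family with log2 fold changes of this same contrast in view, those of Ccn2, Thbs1 and Comp among them. The differences between genotypes are therefore a description of these 6 arrays, and counts of members are not independent evidence of a direction.

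Members of this group bind integrins, CD36, CD47 and growth factors. In injured heart muscle many of them are known to be induced in fibroblasts by TGF-beta and by mechanical load. CCN2 and the thrombospondins modulate growth factor signals, COMP and CILP were first known from cartilage, and periostin, tenascin-C and fibronectin guide cell adhesion and migration. The SAN is a dense fibroblast-rich tissue in which pacemaker cells lie embedded in matrix.

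RNA came from dissected SAN tissue of adult mice, 3 arrays of HCN4FEA and 3 of WT. HCN4FEA mice carry a targeted Hcn4 allele in all cells of the body. Amino acid exchanges in the cAMP-binding domain remove the response of the HCN4 channel to cAMP, and a further exchange in the C-linker sets its activation to the range of basal cAMP. Both genotypes were kept on a mixed inbred background of C57BL/6 N and an SvJ strain, and no treatment is given for either. The methods give n = 3 for the mice of each genotype, while the labels tie no array to an animal, and errors and p-values measure only the spread between these arrays. Each value is the log2 signal of a probe set after RMA normalisation by the authors, and 1 unit is a doubling. Differences are HCN4FEA minus WT on that scale, and levels of different probe sets are not compared with each other.

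The median log2 signal of the arrays lay between 2.44 and 2.51, and Pearson's r between pairs of arrays, taken over genes that are no independent replicates, was 0.983 to 0.991. All 9 measured genes of a list of SAN markers had means above 2.53, the 99th percentile of the 1400 olfactory and vomeronasal receptor probe sets that stand for the background, among them Hcn4 with 6.09 ± 0.40 in HCN4FEA and 5.80 ± 0.68 in WT tissue (SD, n = 3 each). A list of atrial myocardium markers averaged 8.86 to 9.20 on the HCN4FEA arrays and 9.18 to 9.36 on the WT arrays, so atrial muscle RNA was in every sample. The labels call all mice male. Xist, which female cells transcribe to silence an X chromosome, was at 8.97 to 9.08 in HCN4FEA and 9.02 to 9.43 in WT tissue. Uty, Kdm5d and Eif2s3y of the Y chromosome were between 1.09 and 1.62 on all 6 arrays. By these genes the tissue on all 6 arrays was female, against the labels. HCN4FEA 3 and WT 1 stood apart in a list of neuron markers, which averaged 4.79 and 4.25 on these arrays and 2.17 to 2.46 on the others. Bulk tissue does not tell a change in the number of cells of one type from a change in RNA per cell.

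All 9 measured matricellular genes had a mean in HCN4FEA tissue at or above that in WT tissue. Their log2 fold changes ran from 0.01 for Sparc to 1.70 for Cilp. The median was 0.28, against 0.012 over all 25341 probe sets tested, of which 53.0% had a fold change above 0. At an unadjusted p under 0.05 by limma, 4 of the 9 were higher in HCN4FEA tissue (Cilp, Thbs1, Ccn2 and Comp), 0 were lower and 5 did not pass. Of all probe sets tested, 3.40% were higher and 2.71% lower at that threshold, 6.10% in all. The same 4 also had a fold change of at least 1.5, as did 0.604% of all probe sets in that direction, with 0.529% in the other and 1.13% in all. Since the contrast chose the members, nothing is read from these shares. After Benjamini-Hochberg adjustment over all 25341 probe sets, 0 members passed 0.05 by limma, the smallest adjusted p among them being 0.731, and 0 passed by the methods' t-test. Groups of 3 against 3 cannot reach an exact two-sided permutation p below 0.1. Only Ccn2 and Thbs1 passed the unadjusted threshold without HCN4FEA 3, without WT 1 or without WT 2.

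**Figure D1:**
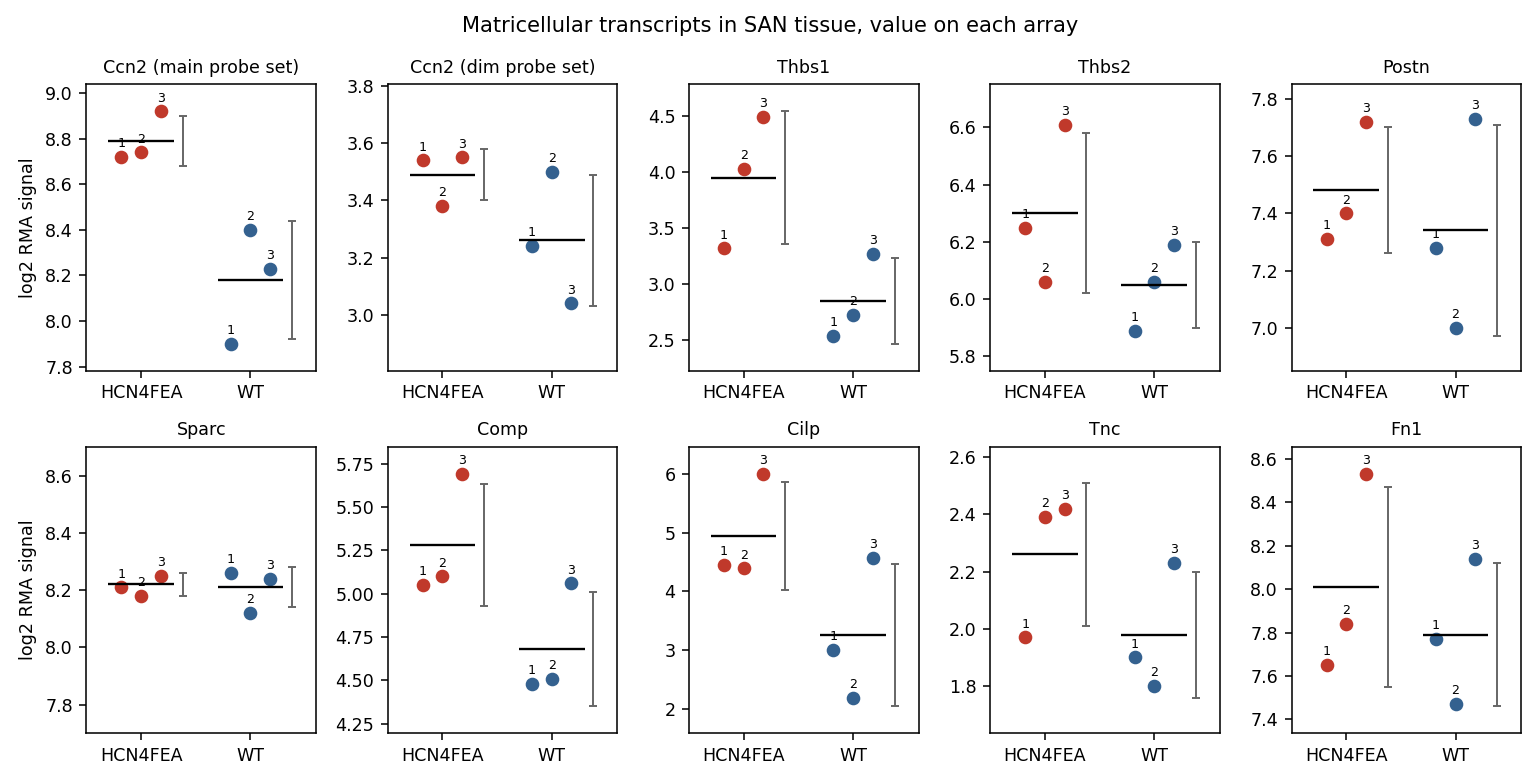
Log2 RMA signal of the 10 matricellular probe sets on each array, HCN4FEA in red and WT in blue, with the array number above each point, the mean as a black line and 1 SD as a grey bar (n = 3 each). The genotypes do not overlap for the main Ccn2 probe set and for Thbs1, and the vertical scale differs between panels.

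Ccn2, formerly connective tissue growth factor, is a secreted protein that binds growth factors and integrins and a textbook target of TGF-beta and of the YAP and TEAD transcription factors. On its main probe set (17232235) it had log2 signals of 8.72, 8.74 and 8.92 in HCN4FEA tissue, against 7.90, 8.40 and 8.23 in WT tissue. Every HCN4FEA array thus lay above every WT array, with a gap of 0.32 between the lowest and the highest of them. The log2 fold change was 0.61 (standard error 0.15, 95% confidence interval 0.27 to 0.96), a ratio of 1.53. WT 1 was the lowest array, and the fold change was 0.47 without it and 0.73 without WT 2. Of the 4 higher genes it was the most even within HCN4FEA, with an SD of 0.11, while the SD in WT was 0.26.

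A further, dim probe set of Ccn2 (17239773) gave 3.54, 3.38 and 3.55 in HCN4FEA and 3.24, 3.50 and 3.04 in WT tissue. Here the genotypes overlapped, since WT 2 lay above HCN4FEA 2. Its fold change was 0.23 (interval -0.10 to 0.55) and did not pass an unadjusted p of 0.05. The fold change of the mean of both probe sets was 0.42. Groups that did not overlap with HCN4FEA on top were found for 2 of the 9 genes, Ccn2 and Thbs1, and for 6.31% of all probe sets tested, with 4.92% the other way round.

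Thbs1, Thbs2 and Comp belong to the thrombospondin family, and Comp is also known as thrombospondin 5. Thbs1, which encodes an antiangiogenic trimer that activates latent TGF-beta and is also stored in platelets, was at 3.32, 4.03 and 4.49 in HCN4FEA tissue, against 2.54, 2.73 and 3.27 in WT tissue. The genotypes were separated by 0.04 only, between HCN4FEA 1 and WT 3. The log2 fold change was 1.10 (standard error 0.31, interval 0.39 to 1.81), or 2.14-fold. Leaving out HCN4FEA 3 gave 0.83, and leaving out HCN4FEA 1 gave 1.41. By the methods' t-test Thbs1 did not pass an unadjusted p of 0.05. All 3 HCN4FEA values lay above 2.53, as did all 3 WT values, the lowest of these by a narrow margin.

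Comp, whose pentameric product binds collagen fibrils in cartilage and tendon, was at 5.05, 5.10 and 5.69 in HCN4FEA and 4.48, 4.51 and 5.06 in WT tissue. HCN4FEA 1 lay just under WT 3, so the genotypes overlapped by 0.02. The fold change was 0.60 (standard error 0.22, interval 0.08 to 1.11). It was 0.39 without HCN4FEA 3, 0.50 without WT 1 and 0.51 without WT 2, and did not pass an unadjusted p of 0.05 in these 3 cases or by the methods' t-test. Thbs2, an antiangiogenic relative of Thbs1 expressed by fibroblasts, gave 6.25, 6.06 and 6.61 in HCN4FEA and 5.89, 6.06 and 6.19 in WT tissue. The ranges overlapped, and the fold change of 0.26 had an interval of -0.12 to 0.63.

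Cilp, the cartilage intermediate layer protein, which is made by cardiac fibroblasts and is known to counter TGF-beta signalling, had the largest fold change of the members and the largest spread. Its log2 signals were 4.45, 4.39 and 6.00 in HCN4FEA tissue, against 3.00, 2.18 and 4.57 in WT tissue. The highest array of each genotype stood well above the others, and WT 3 lay above HCN4FEA 1 and HCN4FEA 2. The fold change was 1.70 (standard error 0.63, interval 0.23 to 3.16), or 3.24-fold. It fell short of an unadjusted p of 0.05 without HCN4FEA 3 (1.17), WT 1 (1.57) or WT 2 (1.16), and by the methods' t-test. WT 2, at 2.18, lay below the background percentile of 2.53. The SD within genotype, pooled over both, was 1.08 for Cilp, higher than that of 99.6% of the 2542 probe sets with a mean within 0.5 of its own.

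**Figure D2:**
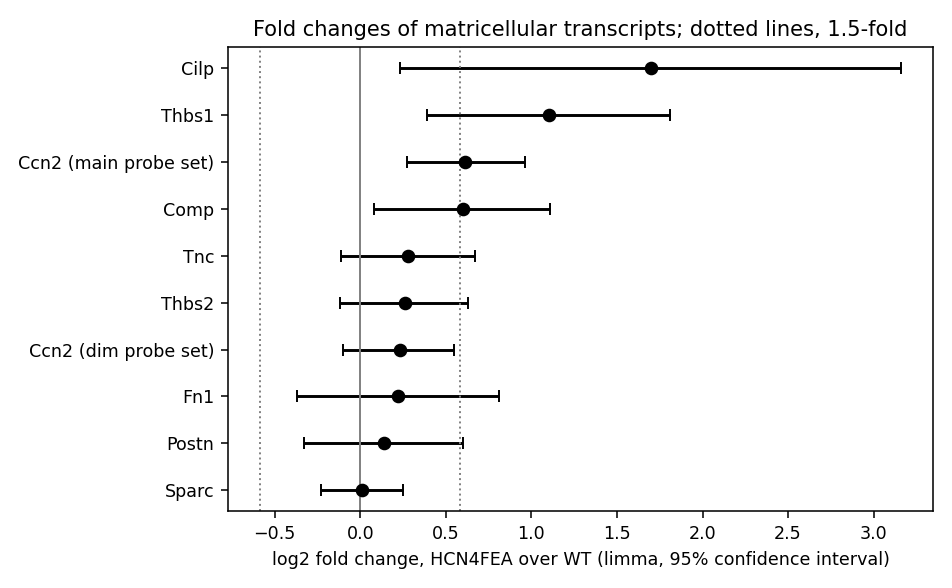
Log2 fold change of HCN4FEA over WT for each matricellular probe set, with the 95% confidence interval of limma; dotted lines mark 1.5-fold in either direction. The intervals of Cilp, Thbs1, the main Ccn2 probe set and Comp lie above 0, and those of the other 6 probe sets include it.

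Promoter sequence from RefSeq (GRCm38.p6), 250 bases before to 50 after a start, was found for 6 of the 10 listed genes in 9 windows. Ccn2, Thbs1, Comp and Fn1 were not among these genes, so what follows does not cover them. Shown are windows of Cilp, which had the largest fold change, and of Tnc and Postn, which hold the same motif within a few bases of its place in Cilp. The capitals mark the motif TATATAA, a form of the TATA box, searched on both strands.
Cilp, chr9:65264930-65265229, plus strand: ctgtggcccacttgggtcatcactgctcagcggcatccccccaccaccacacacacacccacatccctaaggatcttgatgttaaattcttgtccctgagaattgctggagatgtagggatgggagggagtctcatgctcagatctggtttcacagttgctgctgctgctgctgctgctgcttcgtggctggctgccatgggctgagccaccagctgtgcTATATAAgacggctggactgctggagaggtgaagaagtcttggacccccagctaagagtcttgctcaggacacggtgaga
Tnc, chr4:64046887-64047186, minus strand: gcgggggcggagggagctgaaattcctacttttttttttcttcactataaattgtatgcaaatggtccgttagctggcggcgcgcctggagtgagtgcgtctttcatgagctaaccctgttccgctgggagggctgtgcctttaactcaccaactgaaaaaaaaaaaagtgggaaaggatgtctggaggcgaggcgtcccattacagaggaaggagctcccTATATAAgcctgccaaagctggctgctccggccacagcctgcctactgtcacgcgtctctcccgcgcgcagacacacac
Postn, chr3:54360857-54361156, plus strand: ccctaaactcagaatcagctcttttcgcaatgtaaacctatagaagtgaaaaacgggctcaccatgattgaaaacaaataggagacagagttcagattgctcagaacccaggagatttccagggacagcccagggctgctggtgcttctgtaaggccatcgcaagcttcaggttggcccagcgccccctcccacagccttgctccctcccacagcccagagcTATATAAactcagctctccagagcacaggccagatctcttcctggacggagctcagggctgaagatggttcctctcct
The motif begins at position -30 from the start in Cilp, -29 in Tnc and -28 in Postn, counted so that the base at the start is 0. It was found in 1 window of each of these genes and in none of the windows of Thbs2, Sparc and Spp1. Other forms of the TATA box were not searched. The motif occurs in 3.24% of the 32851 windows of all genes. A TEAD motif, GGAATG on either strand, was in none of the 9 windows and in 14.7% of all. A SMAD motif, CAGACA on either strand, was found 2 times each in Thbs2, Sparc and the Tnc window shown and 1 time in a window of Spp1, and it was in 21.0% of all windows. A further Tnc window overlaps the one shown and holds 1 of the same matches. These matches describe letters and not binding. The log2 fold changes of the genes shown were 1.70 for Cilp, 0.28 for Tnc and 0.14 for Postn.

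Among the adhesion-modulating members, tenascin-C and periostin are hardly expressed in most resting adult muscle and appear in repair and in valves, while fibronectin and Sparc, a collagen-binding glycoprotein also called osteonectin, are made widely by fibroblasts and endothelium. Fn1 was at 7.65, 7.84 and 8.53 in HCN4FEA and 7.77, 7.47 and 8.14 in WT tissue. WT 3 lay above 2 of the 3 HCN4FEA arrays, and the fold change of 0.22 (interval -0.37 to 0.81) was -0.05 without HCN4FEA 3. Postn was at 7.31, 7.40 and 7.72 in HCN4FEA and 7.28, 7.00 and 7.73 in WT tissue, with a fold change of 0.14 (interval -0.33 to 0.60) that was -0.03 without WT 2. The ranges overlapped for both genes, with HCN4FEA 3 above every WT array for Fn1 and WT 3 just above every HCN4FEA array for Postn.

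Tnc gave 1.97, 2.39 and 2.42 in HCN4FEA and 1.90, 1.80 and 2.23 in WT tissue, a fold change of 0.28 (interval -0.11 to 0.67). All 6 values lay below 2.53, so tenascin-C transcripts were not told apart from background. Sparc was the steadiest member. Its signals were 8.21, 8.18 and 8.25 in HCN4FEA and 8.26, 8.12 and 8.24 in WT tissue, and the fold change was 0.01 with an interval of -0.23 to 0.25, which leaves out changes of 1.5-fold. Its pooled SD of 0.06 was higher than that of only 12.6% of the 522 probe sets of like signal, whereas for Fn1, Postn, Thbs1, Comp and the main Ccn2 probe set that share was 90.5% or more, with 97.5% for Fn1.

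Within each genotype most members shared their highest array, while the other arrays kept no common order. HCN4FEA 3 had the highest value of the HCN4FEA arrays for 9 of 9 genes, and WT 3 had the highest of the WT arrays for 7 of 9, the exceptions being Ccn2, highest on WT 2, and Sparc, highest on WT 1. Over all probe sets tested HCN4FEA 3 was highest in 35.2% and WT 3 in 36.6%. Both were highest at once for 7 members, and for 13.0% of all probe sets. The lowest array was HCN4FEA 1 for 6 members and HCN4FEA 2 for 3, and WT 1 for 4 and WT 2 for 5. The median over all probe sets tested was also highest on HCN4FEA 3 (2.51), but WT 3 (2.44) lay below WT 1 (2.47). Cilp deviated most from its genotype mean, by 1.06 on HCN4FEA 3 and 1.32 on WT 3. Thbs1 deviated by 0.54 and 0.43 on these arrays, Fn1 by 0.53 and 0.34, Comp by 0.41 and 0.38 and Postn by 0.25 and 0.39. Genes measured on one array are not independent of each other, and the labels do not say what the shared number 3 means.

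**Figure D3:**
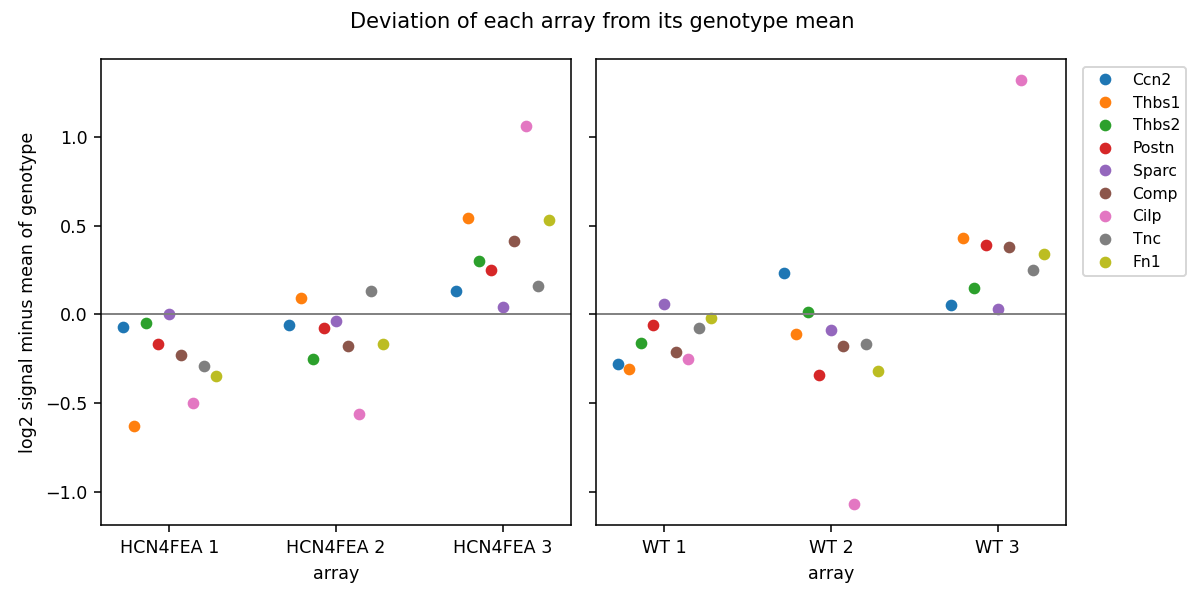
Deviation of each array from the mean of its genotype, in log2 units, for the 9 matricellular genes, HCN4FEA arrays on the left and WT arrays on the right. All 9 genes lie above their mean on HCN4FEA 3 and on WT 3, most of all Cilp at 1.06 and 1.32.

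Averaged over the 9 genes, the log2 signal was 5.88, 6.01 and 6.51 in HCN4FEA and 5.45, 5.36 and 5.96 in WT tissue. WT 3 thus lay between HCN4FEA 1 and HCN4FEA 2. With HCN4FEA 3 and WT 3 both left out, a setting chosen after these values were seen, the fold changes were 1.83 for Cilp, 1.04 for Thbs1, 0.58 for Ccn2 and 0.58 for Comp, and 4 of 9 genes passed an unadjusted p of 0.05, as did 1887 of all 25341 probe sets. With HCN4FEA 3 and WT 1 left out, the arrays that stood apart in neuron markers, the fold changes were 1.04, 0.67, 0.41 and 0.29, and 1 of 9 passed, Ccn2, as did 1239 of all probe sets. On its main probe set Ccn2 passed that threshold under each of the 15 alternatives tried, 1 of which took the mean of both probe sets. The dim Ccn2 probe set passed under 1 of 13 and Thbs1 under 11 of 13. All alternatives reuse the same 6 arrays, so they are not independent evidence.

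**Figure D4:**
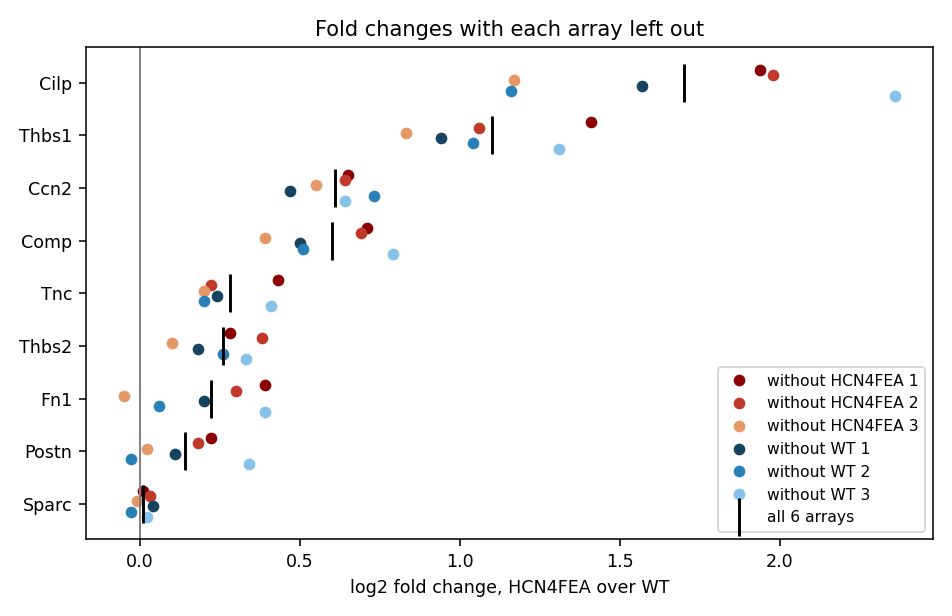
Log2 fold change of HCN4FEA over WT for the 9 genes with all 6 arrays (black bar) and with each array left out in turn (coloured points). Cilp ranges from 1.16 to 2.36, Ccn2 from 0.47 to 0.73, and Fn1, Postn and Sparc have points on both sides of 0.

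Relatives of the members were compared in the same fit. At an unadjusted p under 0.05 by limma, 3.40% of all probe sets tested were higher in HCN4FEA tissue and 2.71% lower. The lists below were chosen with earlier results of these data known, so nothing is read from their counts beside these shares. Of 28 measured genes of these and neighbouring families (CCN, thrombospondin, SPARC-like, tenascin, fibulin and galectin genes among them), 2 were higher, 0 lower and 26 did not pass an unadjusted p of 0.05, and the median fold change was 0.13. The 2 were Fbln1, which encodes the matrix and basement membrane protein fibulin 1, and Sparcl1, the adhesion-reducing relative of Sparc. Fbln1 was at 8.86, 8.80 and 9.09 in HCN4FEA and 8.32, 8.59 and 8.64 in WT tissue, a fold change of 0.40 (interval 0.09 to 0.71). Sparcl1 was at 9.71, 9.43 and 9.58 in HCN4FEA and 9.35, 9.04 and 9.24 in WT tissue, a fold change of 0.36 (interval 0.07 to 0.66), against 0.01 for Sparc. Neither gene passed without HCN4FEA 3, and nor did Fbln1 without WT 1 or Sparcl1 without HCN4FEA 1 or WT 2.

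Ccn1, the closest relative of Ccn2 and like it a YAP target, had a fold change of the opposite sign, -0.35 (interval -0.91 to 0.21). Its values were 5.63, 5.27 and 5.97 in HCN4FEA and 6.36, 6.00 and 5.55 in WT tissue, which overlap. The difference between Ccn2 and Ccn1 was not tested. Thbs3 was at 0.27 (interval -0.06 to 0.61) and Thbs4 at 0.15 (interval -0.11 to 0.40), with Thbs4 at or near the background (2.35 to 2.55 in HCN4FEA, 2.20 to 2.32 in WT tissue). Tgfbi, the relative of Postn, was at 0.13 (interval -0.11 to 0.37). Smoc2, a SPARC-related gene, was at -0.28 (interval -0.64 to 0.08).

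**Figure D5:**
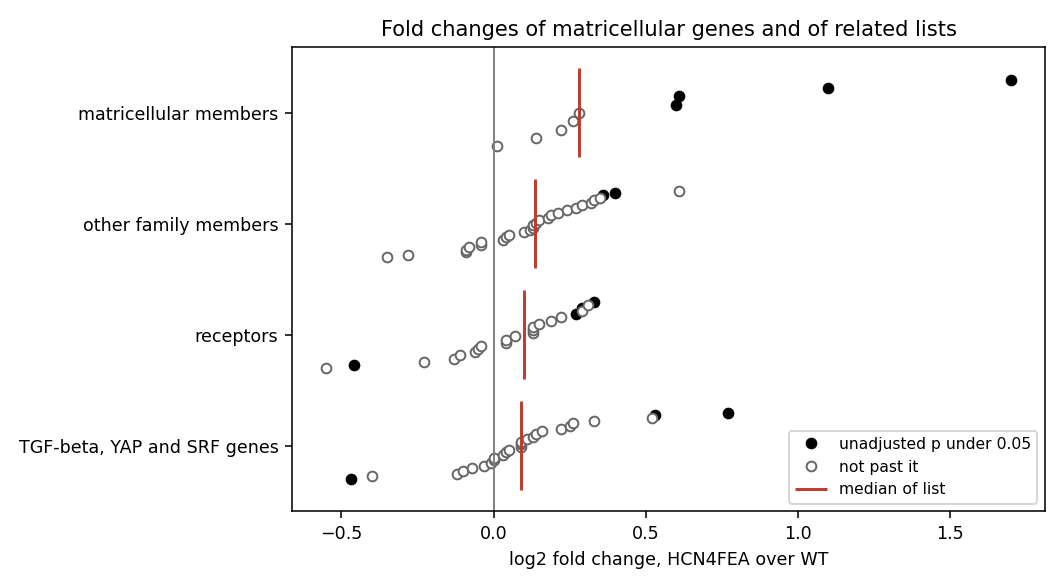
Log2 fold change of HCN4FEA over WT for the 9 matricellular genes, 28 other family members, 22 receptors and 26 TGF-beta, YAP and SRF genes, with filled points for an unadjusted p under 0.05 by limma and red lines for list medians (0.28, 0.13, 0.10 and 0.09). The matricellular genes were listed with these results known, so the lists are not compared by a test.

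Of 22 genes of receptors for matricellular proteins, 3 were higher, 1 was lower and 18 did not pass an unadjusted p of 0.05, with a median of 0.10. The shares over all probe sets tested were 3.40% higher and 2.71% lower. Cd36 and Cd47, which bind thrombospondins, had fold changes of -0.13 (interval -0.40 to 0.15) and 0.04 (-0.21 to 0.28). Itgav, Itgb1 and Itgb3, integrin subunits that bind fibronectin and several matricellular proteins, were at 0.07, -0.04 and 0.19, and Cd44, a hyaluronan receptor that also binds osteopontin, was at 0.29 (interval -0.28 to 0.85). Stab1, a scavenger receptor of macrophages that takes up SPARC, was higher by 0.33 (interval 0.08 to 0.57) and Itga9, whose integrin binds tenascin-C and osteopontin, by 0.29 (0.07 to 0.52). Both passed without each array in turn. Itgb8, a subunit of an integrin that activates latent TGF-beta, was higher by 0.27, which held past the threshold only without WT 1 when arrays were left out in turn. Itgb6, a subunit of another such integrin found on epithelium, was lower, with a fold change of -0.46 (interval -0.80 to -0.11). It did not pass without HCN4FEA 3 or WT 3. For each of Stab1, Itga9, Itgb8 and Itgb6 the genotypes did not overlap. The same held for 6.31% of all probe sets tested with HCN4FEA on top and for 4.92% the other way round.

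Of 26 genes of the TGF-beta, YAP and SRF pathways, by which matricellular genes are known to be induced, 2 were higher, 1 was lower and 23 did not pass. The shares over all probe sets tested were 3.40% higher and 2.71% lower. Tgfb2, a TGF-beta ligand, was at 6.08, 5.85 and 6.79 in HCN4FEA and 5.40, 5.34 and 5.67 in WT tissue. Its fold change of 0.77 (interval 0.22 to 1.31) was 0.49 without HCN4FEA 3, its highest array. By the methods' t-test neither Tgfb2 nor Ltbp2 passed an unadjusted p of 0.05. Tgfb1 and Tgfb3 were at 0.14 (interval -0.10 to 0.38) and 0.22 (-0.17 to 0.61). Ltbp2, a latent TGF-beta binding protein, was at 0.53 on values of 1.62 to 2.68, and passed with 2 of the 6 arrays left out in turn. Tead3, a DNA-binding partner of YAP, was lower by limma with a fold change of -0.47 (interval -0.75 to -0.20), while its coactivator genes Yap1 and Wwtr1 were at -0.01 and 0.11 and the YAP target Ankrd1 at 0.16. None of the genes of these 3 lists passed an adjusted p of 0.05 over all probe sets.

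Markers of cells that could carry these transcripts were set beside the members, and their part in the differences was not tested. Of 11 fibroblast markers 1 was higher, Mfap5 at 0.42 (0.27 without HCN4FEA 3), and the list averaged 8.28 to 8.43 in HCN4FEA and 8.19 to 8.29 in WT tissue. Of 10 markers of activated fibroblasts 2 were higher, Col8a1 (0.75) and Ltbp2, each past the threshold with 2 of the 6 arrays left out in turn. That list averaged 4.21 to 4.51 in HCN4FEA and 4.03 to 4.17 in WT tissue, and 4 of its genes had means below 2.53, Ltbp2 among them. Among 13 markers of cartilage, tendon and valve, 2 were higher, Epyc (0.76) and Cytl1 (0.38), with list averages of 3.15 to 3.31 in HCN4FEA and 2.91 to 3.14 in WT tissue. Means of 8 of these 13 lay below the background percentile, those of the cartilage genes Acan and Col2a1 among them. Of 12 macrophage markers 5 were higher, among them Trem2 (0.63) and Cd163 (0.38). With the 6 arrays left out in turn, these 2 passed each time, Gpnmb 4 times and Csf1r 1 time. The list averaged 5.44 to 5.71 in HCN4FEA and 5.26 to 5.47 in WT tissue. All 3 WT values of Trem2 lay below 2.53.

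Of 5 platelet markers 2 were higher, Pf4 (0.35) and Gp5 (0.32), beside 3.40% higher and 2.71% lower of all probe sets tested. Pf4 did not pass without HCN4FEA 2, HCN4FEA 3, WT 1 or WT 2 (0.26, 0.37, 0.28 and 0.36), nor Gp5 without HCN4FEA 1, HCN4FEA 2 or WT 3 (0.33, 0.26 and 0.25). All 6 values of Gp5, and the means of 3 of the 5 genes, lay below 2.53. The list averaged 2.80 to 4.50 in HCN4FEA and 2.81 to 3.02 in WT tissue. Its highest array was HCN4FEA 2, where the platelet chemokine gene Ppbp was at 6.92 against 1.94 to 3.39 on the other 5. The part of platelet RNA in the Thbs1 values was not tested. Smooth muscle and mesothelial markers had no gene past the threshold among 9 each. They averaged 5.90 to 6.36 and 5.46 to 5.52 in HCN4FEA and 6.04 to 6.46 and 4.68 to 5.68 in WT tissue, WT 1 being the lowest in mesothelial markers. Of 9 adipocyte markers 6 were lower and 0 higher, Cidec at -1.75 among them, with list averages of 3.65 to 4.21 in HCN4FEA and 4.66 to 4.88 in WT tissue. Of 10 skeletal muscle markers 3 were higher, Tnnt3 (1.42), Casq1 (1.05) and Acta1 (0.77), and 0 were lower. Fold changes of this list ran from -0.25 to 1.42, with 7 of the 10 above 0. The list averaged 3.70 to 3.83 in HCN4FEA and 3.38 to 3.52 in WT tissue. Means of 4 of these 10 lay below 2.53. Of 9 SAN markers 1 was higher, Bmp4 at 0.51 (interval 0.17 to 0.85), and 0 were lower. That list averaged 4.93 to 5.34 in HCN4FEA and 4.89 to 5.37 in WT tissue. None of 8 atrial myocardium and 11 neuron markers passed the threshold. Of the 15 lists set beside the members, 7 had their highest HCN4FEA average on HCN4FEA 3 and their highest WT average on WT 3, as the members did: other family members, receptors, TGF-beta, YAP and SRF genes, and markers of fibroblasts, activated fibroblasts, macrophages and skeletal muscle.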

How the data were processed

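SAN tissue RNA of HCN4FEA and WT mice was measured on 6 Affymetrix whole-transcript gene arrays, 3 per genotype. Per the submitters' processing notes and the methods, the authors ran RMA in Expression Console 1.0, with background correction, quantile normalisation and summary to 1 log2 signal for each probe set. These deposited log2 signals were analysed unscaled. RMA can hide a shift shared by most transcripts. The authors' own test was run in Partek 6.5. The array named in the methods is an earlier version than that of the deposited identifiers, with an annotation build not given in the sources used here.

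Of 41345 probe sets, 23521 had 1 gene symbol, 1820 several and 16004 none. The 25341 with a symbol were tested with limma 3.58.1 in R 4.3.3 (unpaired, two-sided, 3.85 prior degrees of freedom, no filter), with Benjamini-Hochberg adjustment over all of them. A gene was represented by its probe set with the highest mean. The study's thresholds were taken as p under 0.05, unadjusted, with at least 1.5-fold. The methods' t-test assumes unequal variances. Members, gene lists and the rule for naming genes were chosen with earlier results of these data known. The rule named all members, and genes of the 3 related lists past an unadjusted p of 0.05 or on a short list of well-known ones. It also allowed up to 4 marker genes a list with the lowest p, and not all of these are named here. Ppbp, Acan and Col2a1 were named after their values were seen. Efemp2 was not analysed here. Alternatives were another test, a variance trend, the replicate number as a block, median centring, a filter at a mean of 4, all probe sets, the mean over probe sets, and arrays left out. Figures were drawn with matplotlib 3.10.9. The number of arrays limits the precision.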

Additional observations from a re-analysis of the deposited data

How the results depend on the processing

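By the methods' t-test, 1 matricellular gene passed an unadjusted p of 0.05 and 1 the study's thresholds (main values 4 and 4), with 1021 of 25341 probe sets at that p (main value 1547) and 1 of the TGF-beta, YAP and SRF genes (main value 3). Without HCN4FEA 3 and WT 1 together these members numbered 1 and 0, and 1 receptor gene passed (main value 4). Without HCN4FEA 3 and WT 3 together, a setting chosen after seeing the data, 2 members passed the study's thresholds and 0 receptor genes the p. With each array left out in turn, 2 to 5 members passed the p and 1 to 4 the study's thresholds, with 0 to 5 other family members, 2 to 4 receptor genes, 2 to 4 TGF-beta, YAP and SRF genes and 1303 to 2034 probe sets. Only probe sets with a mean of at least 4 gave 637 probe sets and 1 TGF-beta, YAP and SRF gene, since fewer were tested (Tead3, Ltbp2, Thbs1 and Tnc were left out), and all 41345 probe sets gave 2445. Fold changes turned sign for Sparc (-0.01 with median centring; -0.03 to 0.04 with arrays left out), Postn (-0.01 without HCN4FEA 3 and WT 1; -0.03 to 0.34 with arrays left out) and Fn1 (-0.06 without HCN4FEA 3 and WT 1; -0.05 to 0.39 with arrays left out). The cause was not tested. The median over the members stayed between 0.17 and 0.43, and 0 members passed an adjusted p of 0.05 under any alternative, the smallest adjusted p being 0.474. The labels do not say whether the replicate numbers pair the arrays. Deviations of same-numbered arrays correlated at -0.05, 0.09 and -0.03 over all probe sets tested, which cannot exclude a pairing. With the number as a replicate block, 4 members passed the p and 4 the study's thresholds, and 1587 probe sets passed the p. By limma with this block, the unadjusted p was 8.5e-05 for Cilp, 0.00026 for Thbs1 and 0.0019 for Comp. Without the block these were 0.0287, 0.0072 and 0.0278. For the main Ccn2 probe set the p by limma was 0.0047 with the block and 0.0036 without it.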
